A study of Mus musculus with 51 samples.

Results

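The HMGN3a and HMGN5SE pools of SV40-transformed mouse embryonic fibroblasts (MEFs) were compared, each and together, with cells that had received an empty vector. The arrays were taken by sample title, and these pools were chosen with earlier results of these data known. They are 3 arrays titled as HMGN3a overexpression, 3 titled as HMGN5SE overexpression and 3 of the empty vector, so 9 of the 51 arrays of the series. RNA was hybridised to Affymetrix Mouse Genome arrays, on which each transcript is read by 1 or more probe sets.

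All 9 arrays came from the SV40-transformed line. The cells were infected, with polybrene, by a retrovirus carrying a construct or the empty vector. They were then selected with puromycin at 1 µg/ml for 7 days and grown for 24 h without it. The controls therefore shared infection and selection with the pools, and no uninfected cells of this line are among the groups used. Per the series' design text, every infected cell was kept, so each group is a pool and not a clone, and the amount of HMGN protein was about 2 times that of the cells before infection. The labels do not say what SE stands for, or if separate infections or cultures lie behind the 3 arrays of a group. The p-values measure the spread between these arrays only, which may be technical. The other groups used are the HMGN5 pool of the same line (3 arrays) and the remaining 4 pools of the line. MIN6 cells, a mouse insulinoma line, were used with HMGN3a or an empty vector (3 arrays each). MIN6 cells with HMGN1 (3 arrays) also entered the MIN6 fit and the ranges of the Mycn probe sets. All these groups had the same polybrene, puromycin, selection and outgrowth settings. For the Mycn probe sets 18 arrays of primary MEFs were read as well. They are of HMGN1, HMGN3 and HMGN5 knock out cells and the wild type cells of each.

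The nuclear proteins of the HMGN family attach to the nucleosome core, compete with linker histone H1 and loosen chromatin. HMGN3 occurs as a long splice form, HMGN3a, and a shorter one, and is known for its expression in pancreatic islets and brain. HMGN5 is the family's largest member and has a long acidic tail at its C-terminal end.

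The 9 arrays had median intensities between 18.7 and 19.5. Of 12 fibroblast markers, 10 lay above the filter on dim probe sets. Vim was at log2 12.55, S100a4 at 12.54, Col1a1 at 9.89, Fn1 at 9.46 and the surface receptor Pdgfrb at 7.60, as means of the 9 arrays, while Thy1 (3.84) and Pdgfra (3.23) lay near or below the filter level of log2 3.63, and Lum and Fap did not pass the filter. Of 12 macrophage and leukocyte markers 7 passed the filter, and Ptprc, Adgre1 and Itgam did not. Of 39 tested genes on 7 lists of cell type markers, none was called by limma in either pool. At an unadjusted p below 0.05, 2 were higher and 3 lower with HMGN3a, and 2 were higher and 2 lower with HMGN5SE. Over all tested genes 10.9% passed that level with HMGN3a and 5.23% with HMGN5SE.

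The targeted genes were read first. Hmgn3 was measured at log2 9.37, 9.45 and 9.62 in the vector arrays and at 9.30, 9.23 and 9.22 in the HMGN3a arrays. Its level in the pool with the HMGN3a construct was thus slightly below the control in every array, with a difference of -0.23 ± 0.08 (standard error, SE; n = 3 and 3; limma adjusted p = 0.322). The other Hmgn3 probe set differed by -0.02. Hmgn5 was at 8.48, 8.47 and 8.69 in the vector arrays and at 8.58, 8.50 and 8.43 in the HMGN5SE arrays, a difference of -0.05 ± 0.08 (adjusted p = 0.999). These probe sets showed no rise where a construct was added. The same held for Hmgn1 in the HMGN1 pool, at a mean of 12.25 against 12.26, and Hmgn5 in the HMGN5 pool was lower, at 7.62. Whether the probe sets can detect RNA from the constructs is not given in the sources used here, so the arrays neither check the labels of these pools nor show how much construct each pool made.

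Few genes differed from the vector control in either pool. In the HMGN3a pool 4 of 13469 tested genes were called (0.0297%) at an adjusted p below 0.05 in limma, 2 higher and 2 lower. In the HMGN5SE pool 2 genes were called (0.0148%), and with all 6 pool arrays set against the 3 vector arrays 3 were called (0.0223%). At an unadjusted p below 0.05 the counts were 1466 (10.9%), 704 (5.23%) and 1082 (8.03%), where about 5% would be expected without any difference. All of these comparisons use the same 3 vector arrays, so a deviation of the vector arrays enters each of them.

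A probe set annotated to Mycn, the gene of the transcription factor N-Myc, had the largest difference of all tested genes in the HMGN5SE pool and in both pools together. In the HMGN3a pool H3f3b differed more. The Mycn probe set was at log2 12.72, 12.76 and 12.77 in the vector arrays, 12.23, 12.28 and 12.23 in the HMGN3a arrays and 11.18, 11.17 and 11.16 in the HMGN5SE arrays. The 3 groups did not overlap, and their standard deviations (SD) were 0.025, 0.030 and 0.012. Over all tested genes, 20% did not overlap between the vector and HMGN3a arrays, 15.3% between vector and HMGN5SE and 17.4% between the pools, so separation alone is common here. The signal fell by 0.50 ± 0.06 in the HMGN3a pool (adjusted p = 0.00161) and by 1.58 ± 0.06 in the HMGN5SE pool (adjusted p = 6.67e-13), which is 0.334 times the vector level with a 95% interval of 0.304 to 0.367. The HMGN3a call was lost with the mean of the gene's probe sets (adjusted p = 0.37) and when the fit held just the arrays compared (0.0831).

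That probe set did not move with the other 2 annotated to Mycn. These lay near the filter level in SV40 cells (3.41 to 4.15 and 3.47 to 3.99 over 24 arrays), and in the HMGN5SE pool they differed from the vector by 0.005 and -0.088. The bright probe set stood among the brightest of all, at 11.16 to 13.39 in the 24 SV40 arrays and at 13.19 to 13.63 in the 9 MIN6 arrays. In the 18 arrays of primary MEFs, which were not transduced, it was at 4.25 to 4.65. Levels are set here across tables with different distributions, so its rank within each array was also read. It lay at the 98.8th percentile or above in every transduced array and between the 67.6th and 71.6th in primary MEFs. Transduction cannot be told apart from the cell lines here. Whether this probe set reads Mycn RNA or another RNA of the transduced cells was not tested, and its values are given below as those of the probe set alone.

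**Figure D1:**
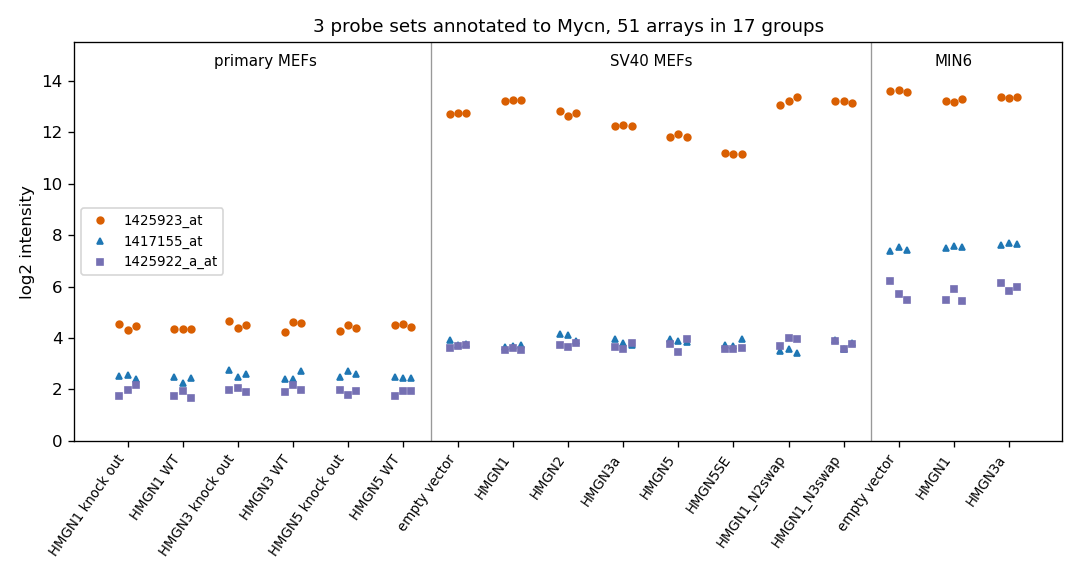
Log2 intensity (vertical axis) of the 3 probe sets annotated to Mycn in every array, for 17 groups in 3 cell types (horizontal axis), with 1 point per array. The probe set shown as circles is at 4.25 to 4.65 in primary MEFs and at 11.16 or above in every transduced array, with HMGN5SE lowest, while the other 2 probe sets are at 3.41 to 4.15 in SV40 MEFs.

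H3f3b, which encodes the replacement histone H3.3, was the other gene called in both pools. Its probe set was at 5.56, 5.49 and 5.64 in the vector arrays, 6.25, 6.44 and 6.22 with HMGN3a and 6.69, 6.53 and 6.62 with HMGN5SE. Every pool array was above every vector array. The rise was 0.74 ± 0.13 (adjusted p = 0.0358) in the HMGN3a pool and 1.05 ± 0.13 (adjusted p = 2.95e-04) in the HMGN5SE pool, a 2.07-fold higher signal with a 95% interval of 1.72 to 2.48.

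This too was the value of 1 probe set, with a mean level of log2 6.161 over the 9 arrays. The 5 bright probe sets that H3f3b shares with H3f3a and related sequences lay at log2 10.6 to 12.4 in these 9 arrays. Their largest difference from the vector in either pool was 0.11, and none reached an unadjusted p below 0.05. These probe sets do not separate the H3.3 genes from each other. The call in the HMGN3a pool was also lost under 11 of 16 alternative settings, including the removal of any 1 array of the pair of groups, with adjusted p between 0.00779 and 0.253 over all 16. The call in the HMGN5SE pool held under all 16.

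Egr1, an early growth response transcription factor induced within minutes by serum and growth factors, rose in the HMGN3a pool. It was at 10.37, 10.41 and 10.36 in the vector arrays, 10.83, 10.86 and 10.82 with HMGN3a and 10.61, 10.66 and 10.57 with HMGN5SE. The groups did not overlap, and HMGN5SE lay between the other two. The difference was 0.45 ± 0.07 with HMGN3a, a 1.37-fold higher level (adjusted p = 0.00455), and 0.23 ± 0.06 with HMGN5SE (adjusted p = 0.582). The direct contrast of the pools gave 0.22 ± 0.06 (adjusted p = 0.382), so the data do not show that the pools differ in Egr1. The HMGN3a call was lost without vector replicate 3 (adjusted p = 0.0555) and when the fit held just the arrays compared (adjusted p = 0.116). Both pools together gave 0.34 ± 0.06 (adjusted p = 0.0223), a call lost without any 1 of the arrays except HMGN5SE replicate 3, with adjusted p from 0.0531 to 0.275.

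Hils1, annotated as a linker histone-like gene of spermatids, was the fourth call in the HMGN3a pool. It was dim, at 4.15, 4.28 and 4.10 in the vector arrays and 3.60, 3.86 and 3.66 with HMGN3a, where the pool lay at the filter level. It fell by 0.47 ± 0.08 (adjusted p = 0.0486). The vector mean of 4.175 was the highest of all groups of the line. The means were 3.821 with HMGN1, 3.831 with HMGN2, 3.929 with HMGN5 and 3.943 and 3.946 with the HMGN1 swap constructs. A lower level than the vector was thus not particular to the HMGN3a pool. The call was lost under 13 of 16 alternatives, with adjusted p between 0.0346 and 0.299, and the level in the HMGN5SE pool was 4.01 ± 0.13 (SD, n = 3), with arrays that overlapped the vector arrays.

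**Figure D2:**
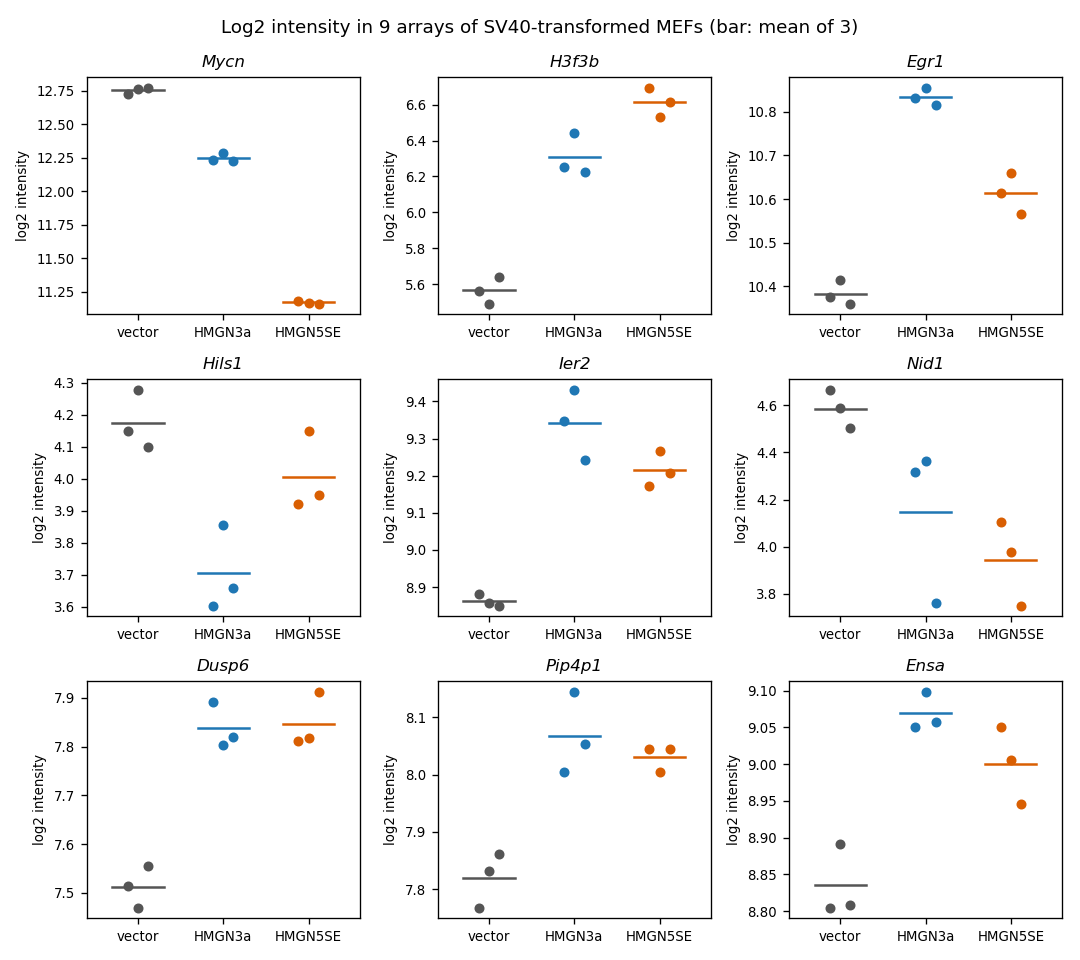
Log2 intensity (vertical axes, each with its own range) of the 4 called genes and the next 5 genes by p-value for both pools together, with 1 point per array and a bar at the mean of 3 arrays for the vector, HMGN3a and HMGN5SE groups. All 6 pool arrays lie on one side of the 3 vector arrays in each panel except that of Hils1.

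Of the genes with the 8 lowest p-values for both pools together, 5 were not called. Ier2, an immediate early response gene, was at 8.88, 8.86 and 8.85 in the vector arrays, 9.35, 9.43 and 9.24 with HMGN3a and 9.17, 9.27 and 9.21 with HMGN5SE. All 6 pool arrays lay above the vector arrays, by 0.42 ± 0.08 (adjusted p = 0.191). It passed the threshold with just the compared arrays in the fit (adjusted p = 0.0355), with a trended and robust variance (0.0232) and with the Actb 3' to 5' difference, a measure of RNA quality, as a covariate (6.95e-04). Over all its alternatives the difference stayed between 0.39 and 0.44.

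Dusp6 encodes a phosphatase that switches off ERK kinases. It was at 7.51, 7.47 and 7.55 in the vector arrays, 7.89, 7.80 and 7.82 with HMGN3a and 7.81, 7.82 and 7.91 with HMGN5SE. Again no pool array reached down to the vector arrays, and the difference of 0.33 ± 0.07 for both pools did not pass the correction (adjusted p = 0.223). Its values in the pools were nearly equal, with a direct contrast of -0.01 and a 95% interval of 0.886- to 1.11-fold. In other pools its mean was 8.365 with HMGN2 and 7.892 with HMGN5, against 7.513 with the vector. It was 7.764 and 7.678 with the HMGN1 swap constructs and 7.378 with HMGN1.

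Nid1, a basement membrane protein, was lower by 0.54 ± 0.11 in both pools together (adjusted p = 0.209), at 4.67, 4.59 and 4.50 against 4.32, 4.36 and 3.76 with HMGN3a and 4.11, 3.98 and 3.75 with HMGN5SE. All these levels are dim, and its other probe sets differed by -0.096 ± 0.223 and 0.157 ± 0.121. Pip4p1, a phosphatidylinositol-bisphosphate phosphatase, was higher by 0.23 ± 0.05 (adjusted p = 0.242). Its mean was also above the vector (7.82) with HMGN1 (8.014), HMGN2 (8.18) and HMGN5 (8.147). With the HMGN1 swap constructs it was below, at 7.549 and 7.588. Ensa, an inhibitor of the phosphatase PP2A, was higher by 0.20 ± 0.04 (adjusted p = 0.242) by its brighter probe set and differed by -0.008 by the other.

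Over all tested genes, 749 (5.56%) had all 6 pool arrays above or all below the 3 vector arrays, 539 of them above (4%) and 210 below (1.56%). The 8 genes just described are part of this count, having been picked for low p-values, and nothing follows from their separation. Between the pools, 1 gene was called (0.00742%), the Mycn probe set, which was 1.08 ± 0.06 higher with HMGN3a (adjusted p = 1.61e-09). At an unadjusted p below 0.05 the contrast of the pools gave 927 genes (6.88%).

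The size of effect that the data exclude was read from the 95% intervals of the log2 differences, with the spread estimated over all 24 SV40 arrays. Of the 13469 genes, 68.8% in the HMGN3a pool, 74.6% in the HMGN5SE pool and 82.7% in both pools together had a whole interval between 20% lower and 25% higher than the vector. Inside a 1.5-fold change the shares were 98.3%, 98.9% and 99.6%. A 2-fold change was excluded by the interval for all but 3, 2 and 2 genes.

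The genes that a 2-fold limit did not cover were few enough to name. For both pools together they were Mycn and H3f3b, 2 of the called genes, and the same pair was left for HMGN5SE. For HMGN3a they were H3f3b, whose upper bound was 1.006 on the log2 scale, and Yipf2 and Myo1h. Yipf2 and Myo1h, named after their values were seen, had standard errors of 0.41 and 0.36 and were not called, so they stand out for their spread rather than for a difference.

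The median interval reached 1.14-fold on either side of the estimate in a single pool and 1.12-fold for both pools together. Precision depended on brightness. In the HMGN3a pool the share inside the limits of 20% lower and 25% higher went from 47.9% in the dimmest of 3 equal sets of genes (mean log2 level 1.78 to 5.39) through 71.4% in the middle set to 87.2% in the brightest (7.76 to 13.6), and in the HMGN5SE pool from 48.8% through 80.4% to 94.4%. Of the tested genes 649 had a mean over the 9 arrays below the filter level, having passed it through at least 1 group of the line, and for these an interval limits the signal and says little about the RNA. Intervals widened to cover all 13469 genes at once still lay inside 2-fold for 92.8% of genes with HMGN3a, 93.9% with HMGN5SE and 97.7% for both together. All such limits hold for probe set intensity, which understates RNA differences of dim genes.

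**Figure D3:**
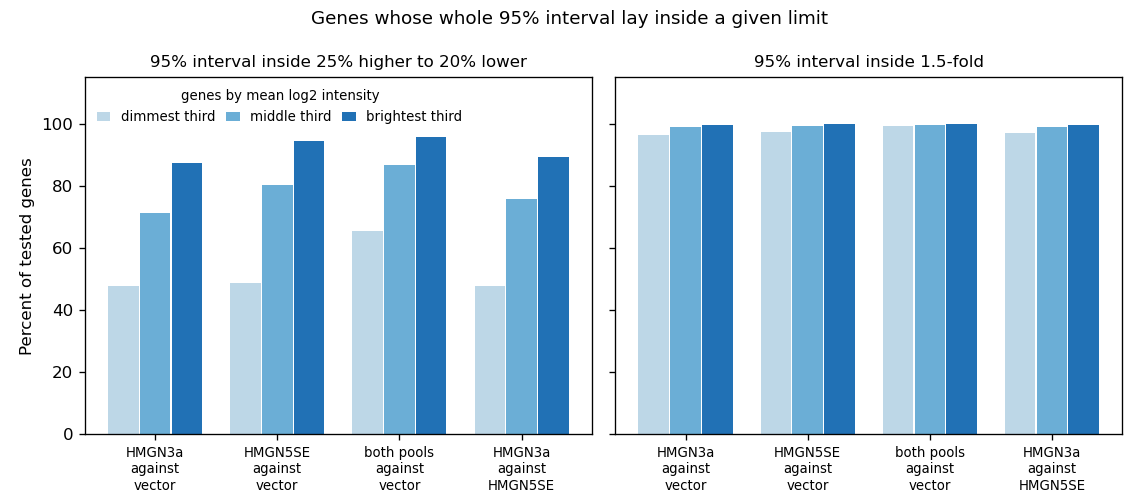
Percent of tested genes (vertical axis) whose whole 95% interval lay between 20% lower and 25% higher (left) or inside a 1.5-fold change (right), for 4 comparisons and for the dimmest, middle and brightest of 3 equal sets of genes. On the left the HMGN3a bars rise from 47.9% to 87.2% with brightness, while on the right they begin at 96.5%.

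The other pools of the same line, measured against the same vector arrays, give the scale. A difference of 1.5-fold or more was estimated for 2 genes in the HMGN3a pool and 3 in the HMGN5SE pool, against 486 with HMGN1, 879 and 896 with the HMGN1 swap constructs, 1158 with HMGN2 and 1548 with HMGN5. The share of genes called was 0.0297% and 0.0148% against 29.4% to 44.3% in those 5 pools. The HMGN3a and HMGN5SE pools were chosen with earlier results known, so this contrast is a description.

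Pairs of single arrays were compared as well. Vector arrays differed from each other by a median of 0.0794 to 0.0896 over genes (absolute log2 difference), from HMGN5SE arrays by 0.0804 to 0.0978 and from HMGN3a arrays by 0.0973 to 0.116. HMGN3a arrays differed among themselves by 0.0934 to 0.106. The distance from the vector to HMGN5SE arrays thus overlapped that between vector replicates. The distance from the vector to HMGN3a arrays lay above that between vector replicates and overlapped that among HMGN3a arrays. From the vector to HMGN5 arrays the distance was 0.194 to 0.210. In a principal component analysis of the 9 arrays, the first component (21.3% of the variance) held the vector arrays at -5.79 to -4.88 and the HMGN3a arrays at 2.07 to 12.12, with HMGN5SE at -4.31 to 0.05.

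**Figure D4:**
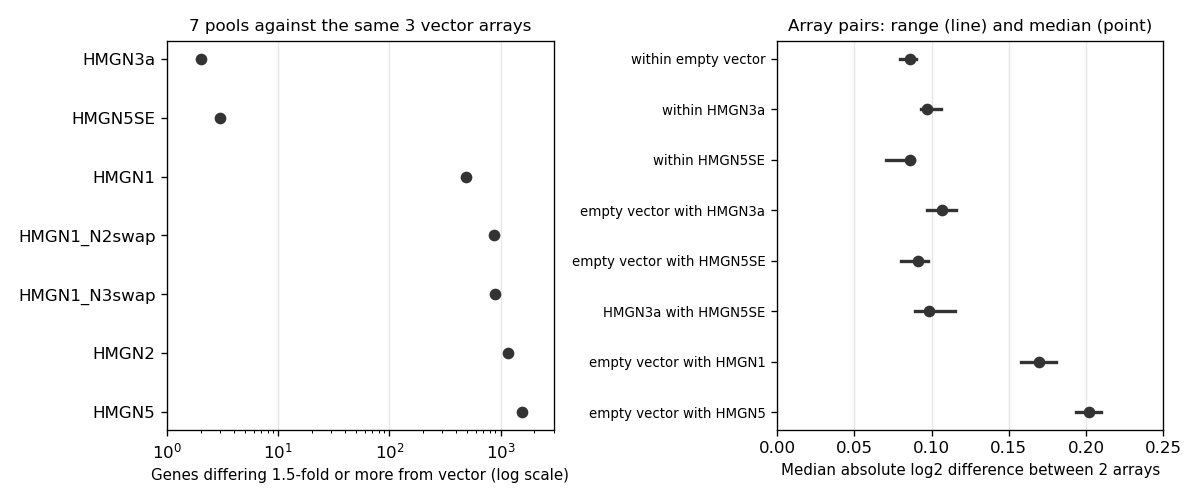
Left, number of genes that differ 1.5-fold or more from the vector (horizontal log axis) in 7 pools of SV40 MEFs, each of 3 arrays. Right, median absolute log2 difference between 2 arrays (horizontal axis) within and between groups, with a line over the range of array pairs and a point at their median. HMGN3a (2 genes) and HMGN5SE (3 genes) lie far below the other pools (486 to 1548). The distances from HMGN5SE to the vector overlap those between vector replicates. Those from HMGN3a to the vector lie above them and overlap those between HMGN3a replicates.

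HMGN5SE was set directly against HMGN5, the construct it is named after. Between these 2 pools 5652 of 13469 genes were called (42%), 2668 higher (19.8%) and 2984 lower (22.2%) with HMGN5. Fbln2, an extracellular matrix protein, was at 10.80, 10.71 and 10.69 with HMGN5, at 4.63, 4.64 and 4.35 with HMGN5SE and at 4.82, 4.78 and 4.61 with the vector. Its difference between the constructs was 6.20 ± 0.11 (adjusted p = 1.04e-20), and HMGN5SE stayed at the vector level. Nid1, Dlk1, Cyba and Lox differed by 6.14, 6.01, 5.91 and 5.46 in the same direction. Tbx20, a T-box transcription factor, went the other way. It was at 2.03, 2.41 and 2.52 with HMGN5, 7.78, 7.54 and 7.65 with HMGN5SE and 7.48, 7.56 and 7.63 with the vector, a difference of -5.34 ± 0.10 (adjusted p = 2.41e-20). These 6 genes are named because they had the largest differences between the 2 pools among all tested genes. Each of the 6 differences comes from the same 2 pools, so a difference between constructs and one between pools of cells cannot be told apart. Nid1 also lay far from the vector mean of 4.585 in pools of other constructs. It was at 2.783 with HMGN1, 8.032 with HMGN2 and 8.599 and 8.315 with the HMGN1 swap constructs.

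The same HMGN3a title in MIN6 cells came with a different count. There 4488 of 13179 genes were called against the MIN6 vector arrays (34.1%), 1917 higher (14.5%) and 2571 lower (19.5%). The difference between the lines was tested in 1 fit over the 12194 genes measured in both, added after seeing the data, and 2541 genes (20.8%) differed in their response at an adjusted p below 0.05. Egr1 rose in MIN6 from 9.17, 9.02 and 8.98 to 10.48, 10.80 and 10.55, by 1.56 ± 0.08 (adjusted p = 4.71e-07), which exceeded the rise in SV40 cells by 1.105 (adjusted p = 2.35e-09). Ier2 rose in MIN6 by 0.62 ± 0.10 (adjusted p = 0.00101), and its difference between the lines was 0.14 (adjusted p = 0.53). Dusp6 fell by 0.80 ± 0.12 in MIN6 (adjusted p = 5.82e-04). Hmgn3 itself was 0.23 ± 0.06 higher in the MIN6 HMGN3a pool (adjusted p = 0.009), while in SV40 cells it was not, and the difference between the lines was 0.456 (adjusted p = 0.00109). Amounts of construct protein in the lines were not analysed here.

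Gene lists were read for shifts too small for single calls. Immediate early genes are induced by growth factors and stress without new protein synthesis. Of 20 listed, 19 were tested, and their median difference was 0.083 with HMGN3a and 0.075 with HMGN5SE, where all tested genes had medians of 0.012 and 0.014. With HMGN3a 1 was called, Egr1, and 4 were higher and 1 lower at an unadjusted p below 0.05. With HMGN5SE none was called by limma, and 5 were higher and 1 lower at that level. Over all genes the shares at that level were 6.62% higher and 4.26% lower with HMGN3a, and 3.52% and 1.71% with HMGN5SE. Junb, an AP-1 subunit, differed by 0.33 ± 0.12 with HMGN3a (adjusted p = 0.352) and 0.07 with HMGN5SE. The interval of every tested gene of this list except 2 lay inside 1.5-fold in the HMGN3a pool, and that of all 19 in the HMGN5SE pool.

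Interferon response genes are switched on after cells sense viral nucleic acid or receive interferon. Of 32 listed, 28 were tested and none was called by limma in either pool. The median difference was 0.133 with HMGN3a, with 23 of 28 above 0, and 0.055 with HMGN5SE, with 21 of 28 above 0. At an unadjusted p below 0.05, 2 were higher with HMGN3a and none with HMGN5SE, where 6.62% and 3.52% of all tested genes were higher. Usp18, which restrains interferon signalling, differed by 0.23 ± 0.15 in both pools together (adjusted p = 0.758). Ddx58, the RNA sensor RIG-I, differed by 0.18 ± 0.07 (adjusted p = 0.542), and Ifih1, the sensor MDA5, by 0.16 ± 0.08 (adjusted p = 0.624). The widest bound on any member was 1.72-fold (Stat2) with HMGN3a and 1.52-fold (Iigp1) with HMGN5SE. Gene by gene, a 2-fold difference in signal was thus outside the interval of each tested member. These intervals were not widened to cover all 28 members at once. Iigp1 had a vector mean of log2 2.949, below the filter level, where an interval says little about the RNA.

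Cholesterol synthesis genes stood on opposite sides of 0 in the pools. Of 21 listed, 17 were tested and none was called. With HMGN3a all 17 were above 0, with a median of 0.12 and 4 higher at an unadjusted p below 0.05. With HMGN5SE 3 were above 0, with a median of -0.088 and none past that level in limma. In the direct contrast of the pools the median was 0.168, and 8 of 17 were higher with HMGN3a at an unadjusted p below 0.05, none of them called. Over all tested genes, 6.62% were higher at that level with HMGN3a against the vector. Between the pools 6.88% differed, counted in both directions, unlike the count of higher genes for the list. Insig1, a sterol sensor of the endoplasmic reticulum, was 0.27 ± 0.12 higher with HMGN3a than with the vector (adjusted p = 0.434) and -0.01 ± 0.12 with HMGN5SE. Hmgcs1, an early enzyme of the pathway, differed by 0.16 ± 0.07 and 0.04 ± 0.07. No member had a bound beyond 1.48-fold against the vector.

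Contractile and YAP or SRF target genes had the higher median in the HMGN5SE pool. All 20 listed genes were tested and none was called. The median was 0.034 with HMGN3a and 0.092 with HMGN5SE, where 19 of 20 were above 0 and 5 were higher at an unadjusted p below 0.05, against 1 with HMGN3a. Over all tested genes 3.52% were higher at that level with HMGN5SE and 6.62% with HMGN3a. Ccn2, a matricellular growth factor, was 0.32 ± 0.09 higher with HMGN5SE (adjusted p = 0.569) and differed by -0.03 ± 0.09 with HMGN3a. The direct contrast for Ccn2 was -0.35 ± 0.09 (adjusted p = 0.27). Myl9, a myosin light chain, differed by 0.45 ± 0.15 with HMGN5SE from a dim vector level of 2.87 (adjusted p = 0.744).

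The Id and BMP genes and the heat shock genes had medians below 0 in both pools. Of 10 tested Id and BMP genes none was called, 4 were lower with HMGN3a and 1 with HMGN5SE at an unadjusted p below 0.05, and the medians were -0.102 and -0.054. Id2 and Id4, inhibitors of basic helix-loop-helix factors, differed by -0.37 ± 0.12 and -0.40 ± 0.14 with HMGN3a (adjusted p = 0.322 and 0.348). Of 14 tested heat shock genes none was called, 4 were lower with HMGN3a and 0 with HMGN5SE at that level, and the medians were -0.072 and -0.026. Over all tested genes 4.26% were lower at that level with HMGN3a and 1.71% with HMGN5SE. The chaperone Hspa1b differed by -0.26 ± 0.09 with HMGN3a (adjusted p = 0.362) and -0.03 ± 0.09 with HMGN5SE.

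Proliferation lists had medians close to that of all genes. The 23 tested mitosis genes had medians of 0.03 and 0.033, and each had its interval inside 1.5-fold in both pools, with a widest bound of 1.26-fold (Aurkb, a mitotic kinase) with HMGN3a and 1.17-fold (Ccnb2, a cyclin) with HMGN5SE. The 27 tested DNA replication genes had medians of 0.01 and -0.011 with a widest bound of 1.42-fold (Tyms, thymidylate synthase). The 26 tested chromatin regulators had medians of -0.008 and -0.012 and bounds of at most 1.37-fold. None of these genes was called by limma. At an unadjusted p below 0.05, 1 mitosis, 3 replication and 3 chromatin genes differed with HMGN3a, and 0, 0 and 1 with HMGN5SE. The shares of all tested genes at that level were 10.9% and 5.23%.

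Among the other lists the ATF4 and amino acid response genes (19 tested, none called by limma, 3 and 1 past an unadjusted p of 0.05) had medians of 0.079 and 0.05, with Chac1, a glutathione-degrading enzyme, at 0.30 ± 0.09 with HMGN3a (adjusted p = 0.218). Of 20 tested Hox genes, which encode positional transcription factors, none was called, with 5 past an unadjusted p of 0.05 with HMGN3a and 1 with HMGN5SE. For this and the other lists here, the shares of all tested genes past that level were 10.9% with HMGN3a and 5.23% with HMGN5SE. Hoxb9 differed by 0.36 ± 0.07 with HMGN3a (adjusted p = 0.0804) and 0.12 ± 0.07 with HMGN5SE. The extracellular matrix genes (33 tested, none called by limma, 4 and 7 past an unadjusted p of 0.05) had medians of 0.031 and 0.023, and Vcan, a large matrix proteoglycan, differed by -0.45 ± 0.14 with HMGN5SE (adjusted p = 0.667). Medians of the NF-kB targets (15 tested) were -0.005 and 0.049, those of the p53 targets (18 tested) -0.009 and 0.02, and those of hypoxia and glycolysis (20 tested) 0.009 and -0.002. No gene of these last 3 lists was called by limma. At an unadjusted p below 0.05, 3, 3 and 2 of their genes differed with HMGN3a and 0, 1 and 2 with HMGN5SE. Genes linked to HMGN proteins in earlier work (11 tested) had medians of 0.041 and 0.084 and held Egr1 as their only call. At an unadjusted p below 0.05, 3 of them were higher and 1 lower with HMGN3a, and 2 were higher with HMGN5SE. The linker histones and histone variants (9 tested) had medians of 0.055 and 0.07 with H3f3b as their only call. At that level 3 of them were higher with HMGN3a and 2 with HMGN5SE. The HMG family (6 tested) had medians of 0.004 and -0.047 with no call by limma and 2 genes lower with HMGN3a at an unadjusted p below 0.05.

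**Figure D5:**
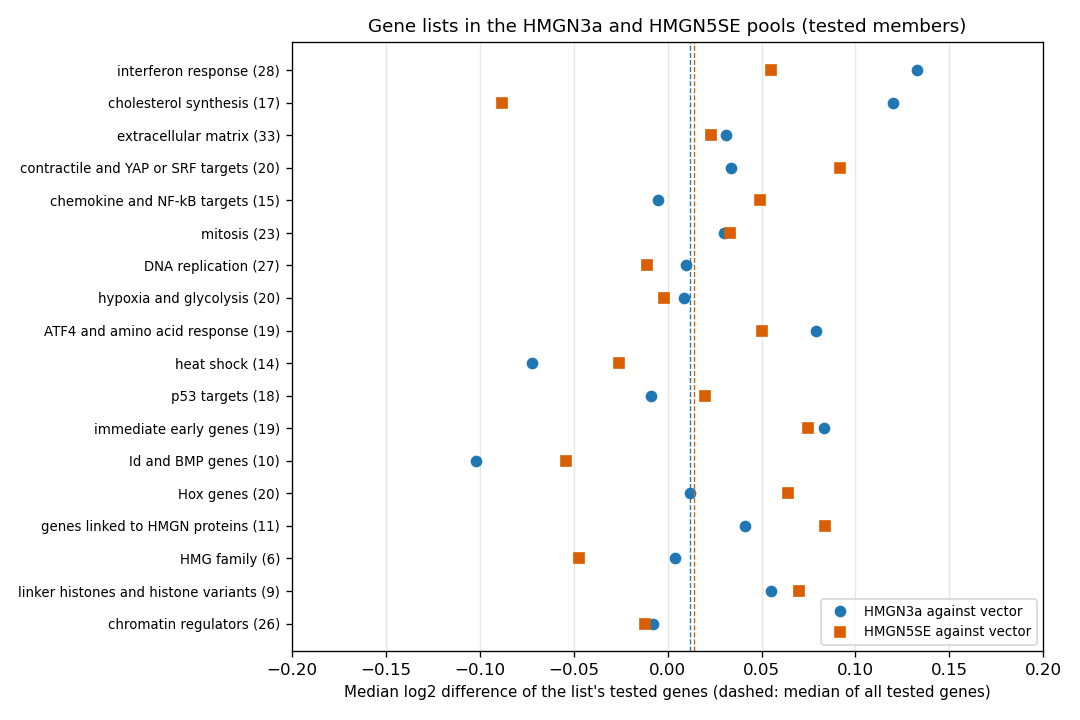
Median log2 difference from the vector (horizontal axis) of the tested members of 18 gene lists, for the HMGN3a pool (circles) and the HMGN5SE pool (squares), with dashed lines at the medians of all tested genes. The medians lie between -0.102 and 0.133, and the cholesterol synthesis list has 0.12 with HMGN3a and -0.088 with HMGN5SE.

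Some technical measures differed among the 9 arrays. The Actb 3' to 5' difference was 0.233 to 0.29 in the vector arrays, 0.193 to 0.237 with HMGN3a and 0.203 to 0.393 with HMGN5SE, where replicate 1 was highest. The summed level of the 7 macrophage and leukocyte markers was 7.48 to 7.54 in the vector arrays, 7.49 to 7.72 with HMGN3a and 7.61 to 7.75 with HMGN5SE, and none of the 7 was called. Their part in the small shifts was not tested, apart from the Actb covariate named above. In bulk RNA, fewer cells of a type and less RNA per cell cannot be told apart.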

How the data were processed

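The deposited intensities are linear, 1 per probe set, and the authors computed them with RMA (the submitters' processing notes give no version). RMA removes background, sets all arrays of a run to 1 distribution and sums the probes of a set, so overall shifts of RNA amount are lost. The build and settings are not given in the sources used here. All 51 value columns were matched to samples by title (0 unused).

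Intensities were turned into log2. Of 45101 probe sets, 34945 carried 1 gene symbol, 932 several and 9160 none, besides 64 controls. For 34741 of the first the gene ID matched RefSeq. Probe sets whose highest group mean in the cell line lay below the 40th percentile were left out, and the brightest remaining one stood for each gene (13469 genes in SV40 MEFs, 13179 in MIN6). limma 3.58.1 (lmFit, eBayes; R 4.3.3; package data.table in version 1.17.8) was fitted to all 24 SV40 arrays, or the 9 MIN6 arrays, with a mean per group. p-values are two-sided, Benjamini-Hochberg adjusted over all genes, and called below 0.05. Intervals are 95% from the same fit, and the widest bound of a gene is the end of its interval farthest from 0.

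The text names the Hmgn genes, every called gene, the 8 genes of lowest p for both pools, genes whose interval reaches 2-fold, and up to 3 members of each list by size of difference for both pools. The genes of largest difference between HMGN5 and HMGN5SE are also named, and others are named as bounds. The members and the 25 lists were chosen with earlier results of these data known. The number of arrays limits precision. The procedure was tested on simulated data. Alternatives varied filter, probe set choice, normalization, samples in the fit, variance model, RNA quality covariate, replicate block and single arrays. Python 3.11.15, pandas 2.3.3 and matplotlib 3.10.9 drew the figures. Genome coordinates and sequences were not used here.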

Additional observations from a re-analysis of the deposited data

Results flagged for a closer look

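The response to the HMGN3a construct differed between MIN6 cells and SV40 MEFs for 7 of the 11 genes tested here, by a test of the difference in 1 limma fit of both lines over 12194 genes, added after seeing the data. All but Hmgn3 had been picked for their values in SV40 cells, so for those 6 a difference from another line is a description. Hmgn3, the gene of the construct, differed by 0.456 (adjusted p = 0.00109), at -0.228 in SV40 cells and 0.228 in MIN6. The SV40 value was not called (limma adjusted p = 0.322), and the other Hmgn3 probe set differed by -0.021 there. Egr1 rose by 1.105 more (log2) in MIN6 than in SV40 cells (adjusted p = 2.35e-09), with all arrays of both HMGN3a pools above their vector arrays. Dusp6 differed by -1.126 (adjusted p = 5e-07), being higher in all 3 HMGN3a arrays in SV40 cells and lower in all 3 in MIN6. H3f3b differed by -0.786 (adjusted p = 8.15e-04) and stayed at the vector level in MIN6. The difference was 0.689 for Hils1 (adjusted p = 8.8e-05), -0.366 for Ensa (adjusted p = 1.69e-04) and 0.248 for the Mycn probe set (adjusted p = 0.031), which fell in both lines. The lines were measured at different intensity distributions, and the part of this in the differences was not tested.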

How the results depend on the processing

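The share of genes with an interval inside 1.5-fold moved little under any alternative, from 95% to 98.7% for HMGN3a, 96.3% to 99.1% for HMGN5SE, 98.4% to 99.7% for both pools and 94.9% to 98.8% for the contrast of the pools, with the lowest value in each from treating every probe set on its own. The count of 4 calls with HMGN3a became 1 (Egr1) with the mean of a gene's probe sets, 2 with quantile normalization again, 2 with the replicate block, and 0 with a limma fit of just the arrays compared, where 1746 genes had an unadjusted p below 0.05. Leaving out single arrays gave 1 to 4 calls, with 1 (Mycn) without vector replicate 3 and 2 without vector replicate 2 or HMGN3a replicate 3. The 2 calls with HMGN5SE became 4 with every probe set on its own and 4 with the Actb covariate, which added Gpc4 and Ier2, and stayed at 2 without any array. Both pools together gave 2 to 4 calls. The contrast of the pools gave 2 calls with no filter, 2 with quantile normalization again, 2 with the Actb covariate and 1 to 3 without single arrays, the 3 being without HMGN3a replicate 1. With every probe set on its own 9819 were called between HMGN5 and HMGN5SE and 7495 in MIN6.

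Deviations of same-numbered arrays correlated at -0.083 to 0.185, and those of differently numbered arrays at -0.163 to 0.136. These overlapping ranges do not settle if the replicate numbers of the titles pair the arrays. The replicate block gave 2, 2, 3 and 1 calls in the 4 contrasts above. Reversals were limited to values near 0. Hmgn1 became -0.003 with HMGN3a and -0.013 with HMGN5SE at one median, and -0.005 and -0.031 without vector replicate 1, and Hmgn5 became 0.027 with HMGN5SE without vector replicate 3. Leaving out single arrays moved these from -0.005 to 0.058, -0.031 to 0.032 and -0.087 to 0.027. Of 360 recomputed values for 21 gene results, 314 kept their direction and side of the threshold, 38 lost the call, 3 gained it and 5 reversed. Where the number of genes or arrays did not change, the cause was not tested.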
